A study of Homo sapiens with 8 samples.

Results

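Aldehyde dehydrogenases are described here in MCF10A and DCIS.COM breast cells that carried either an empty vector or the lncRNA *MALINC1*. The 9 genes listed were *ALDH1A1*, *ALDH1A3*, *ALDH1B1*, *ALDH2*, *ALDH3A1*, *ALDH3A2*, *ALDH3B1*, *ALDH7A1* and *ALDH9A1*, and those analysed were chosen by whether their symbol had a row in the expression table, in which every gene reached 0.5 CPM in at least 2 libraries. This was so for 8 of the 9, out of 13842 genes in the table, and *ALDH2* was not analysed here. The list was drawn up with earlier results of these libraries known, so the values below are a description of the chosen genes.

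The RNA-seq libraries came from MCF10A cells, an established line of normal breast epithelium, and from DCIS.COM cells, an established line of ductal carcinoma in situ. Each line was stably transduced with pLOC-empty or with pLOC-*MALINC1*, a lentiviral vector that expresses *MALINC1*, and all transduced cells were selected with blasticidin. There were 2 libraries in each of the 4 groups and 8 in all, and the labels do not say whether the 2 libraries of a group came from separate cultures, so the p-values measure the spread between these libraries, which may be technical. Both lines grew with horse serum, but MCF10A cells also received epidermal growth factor, hydrocortisone, insulin and cholera toxin, so that cell line and culture medium cannot be told apart.

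Aldehyde dehydrogenases oxidize aldehydes to carboxylic acids with NAD or NADP as the electron acceptor. Their substrates come from retinol, ethanol, lipid peroxidation, amino acids and polyamines, and the members differ in substrate and in their place in the cell. The retinaldehyde-oxidizing members make retinoic acid, the ligand of the nuclear retinoic acid receptors, and aldehyde dehydrogenase activity is widely used to mark stem-like cells of the normal and malignant breast.

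Between 20604377 and 37550457 reads were counted on genes per library, so that 3 reads corresponded to 0.0836 to 0.143 CPM. Levels are given in CPM (reads scaled to a common library size, after the small prior count in the deposited values was removed), and fold changes are on the deposited log2 scale, which holds the prior count and understates the change of low genes. A gene was called when the adjusted p of limma was below 0.01 and the change was over 2-fold. *MALINC1* rose from 1.0 and 1.51 CPM to 13.2 and 11.7 CPM in MCF10A, and from 1.35 and 1.15 CPM to 24.5 and 19.2 CPM in DCIS.COM. All 8 genes of the basal breast epithelial list, which also holds the general epithelial genes *CDH1* and *EPCAM*, were detected in every library. Their summed level was 19747 to 27723 CPM in MCF10A and 4587 to 5445 CPM in DCIS.COM. Of the luminal list, 6 of 8 markers had a row (1290 to 1655 CPM in MCF10A and 3252 to 3502 CPM in DCIS.COM), and *PGR* and *ELF5* had none. Of the fibroblast list only *COL1A1* had a row (1.51 to 15.9 CPM), and of the leukocyte and endothelial list *CD14*, *CD68* and *PECAM1* did (8.07 to 15.3 CPM in sum), while *PTPRC*, *CD3E* and *VWF* did not.

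The promoters of 3 members are shown first, since each gave a distinct pattern over the 4 groups, though *ALDH1B1* was called in neither line. RefSeq (GRCh38.p14) gave 9 promoters for 7 of the 8 genes, each with 250 bases before and 50 after a transcription start, and none was matched for *ALDH3A1*. *ALDH3B1*, the member that fell in both lines, had 2 starts on the plus strand at chr11:68008297-68008596 and chr11:68010077-68010376. *ALDH1A1*, whose differences had opposite signs in the 2 lines, lies on the minus strand at chr9:72953004-72953303. *ALDH1B1*, which rose in MCF10A, lies on the plus strand at chr9:38392452-38392751. Capitals mark the letters of the motifs searched on both strands.
ALDH3B1, first start: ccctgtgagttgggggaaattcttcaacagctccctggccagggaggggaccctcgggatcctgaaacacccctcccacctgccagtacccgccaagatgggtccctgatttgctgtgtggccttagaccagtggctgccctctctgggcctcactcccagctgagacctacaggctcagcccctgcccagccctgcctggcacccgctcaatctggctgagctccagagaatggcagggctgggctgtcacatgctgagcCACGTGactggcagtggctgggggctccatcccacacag
ALDH3B1, second start: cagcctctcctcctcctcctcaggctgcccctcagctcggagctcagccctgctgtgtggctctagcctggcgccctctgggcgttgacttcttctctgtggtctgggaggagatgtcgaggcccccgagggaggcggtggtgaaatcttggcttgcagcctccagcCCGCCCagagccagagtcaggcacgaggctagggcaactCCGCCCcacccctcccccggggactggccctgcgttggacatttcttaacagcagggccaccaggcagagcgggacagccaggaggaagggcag
ALDH1A1: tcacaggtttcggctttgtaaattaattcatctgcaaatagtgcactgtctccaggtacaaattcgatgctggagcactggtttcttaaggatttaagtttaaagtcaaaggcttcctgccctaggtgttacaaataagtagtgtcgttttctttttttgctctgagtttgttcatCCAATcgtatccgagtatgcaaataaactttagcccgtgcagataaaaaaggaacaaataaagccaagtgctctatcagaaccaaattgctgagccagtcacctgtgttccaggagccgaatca
ALDH1B1: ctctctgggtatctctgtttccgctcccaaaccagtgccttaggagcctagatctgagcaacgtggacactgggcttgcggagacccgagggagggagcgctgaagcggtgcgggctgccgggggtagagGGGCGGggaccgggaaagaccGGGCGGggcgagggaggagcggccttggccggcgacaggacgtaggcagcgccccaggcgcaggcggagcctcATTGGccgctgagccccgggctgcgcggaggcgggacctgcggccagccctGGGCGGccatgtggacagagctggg
The motifs were the GC box (GGGCGG), the CCAAT box (CCAAT), the E-box (CACGTG), AP-1 (TGACTCA or TGAGTCA), the core of the aryl hydrocarbon receptor element (GCGTG), the core of the antioxidant element (TGACNNNGC or TGAGNNNGC) and the TATA box (TATAAA). A GC box was present in 6 of the 9 promoters, against 45.0% of all 35116 RefSeq promoters, and a CCAAT box in 5 of the 9, against 34.6%. An E-box was present in 2 of the 9, against 7.26%, and an aryl hydrocarbon receptor core in 2 of the 9, against 36.5%. The antioxidant core was found in 1 of the 9, against 29.1%, whereas AP-1 and the TATA box were found in 0 of the 9, against 4.95% and 11.5%. The *ALDH1A1* promoter held 40.3% GC and 7 CpG, below the medians of 58.7% and 14 over all promoters, and the *ALDH1B1* promoter held 71.3% GC and 27 CpG. The first *ALDH3B1* start had an E-box and no GC box, and the second start had a GC box and no E-box. A match of letters is a description of the sequence and not of binding.

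In MCF10A, 2 of the 8 genes were called with pLOC-*MALINC1*, *ALDH3B1* lower and *ALDH1A1* higher, where 5.5% of all genes tested were called. In DCIS.COM, 3 of the 8 were called and all were lower, *ALDH3B1*, *ALDH3A1* and *ALDH1A1*, where 4.53% of all genes were called. At an adjusted p below 0.01 without a limit on the fold, 6 of 8 passed in each line (4 higher and 2 lower in MCF10A, 2 higher and 4 lower in DCIS.COM), against 39.6% and 33.2% of all genes. The median log2 fold change over the 8 genes was 0.16 in MCF10A and -0.27 in DCIS.COM, beside 0.00 and 0.01 over all genes. The call of *ALDH1A1* in MCF10A rests on a few reads, as its values show. With pLOC-*MALINC1* the summed basal markers went from 19747 to 19903 CPM in the MCF10A control libraries to 27043 to 27723 CPM, and 7 of 8 passed at any fold, all higher. In DCIS.COM the sums were 4587 to 4731 CPM and then 5166 to 5445 CPM, with 3 higher and 2 lower at any fold. *COL1A1* was 2.20-fold lower in MCF10A with pLOC-*MALINC1* (adjusted p = 1.31e-05). In DCIS.COM *PECAM1* went from 6.06 and 7.21 CPM to 0.0874 and 0.177 CPM (33.6-fold lower on the fitted scale, adjusted p = 1.13e-08), whereas *CD68* was 1.95-fold (adjusted p = 8.21e-06) and *CD14* 1.64-fold (adjusted p = 0.00571) higher. The part of these markers in the changes below was not tested, and in bulk libraries fewer cells of a type cannot be told apart from less RNA per cell.

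**Figure D1:**
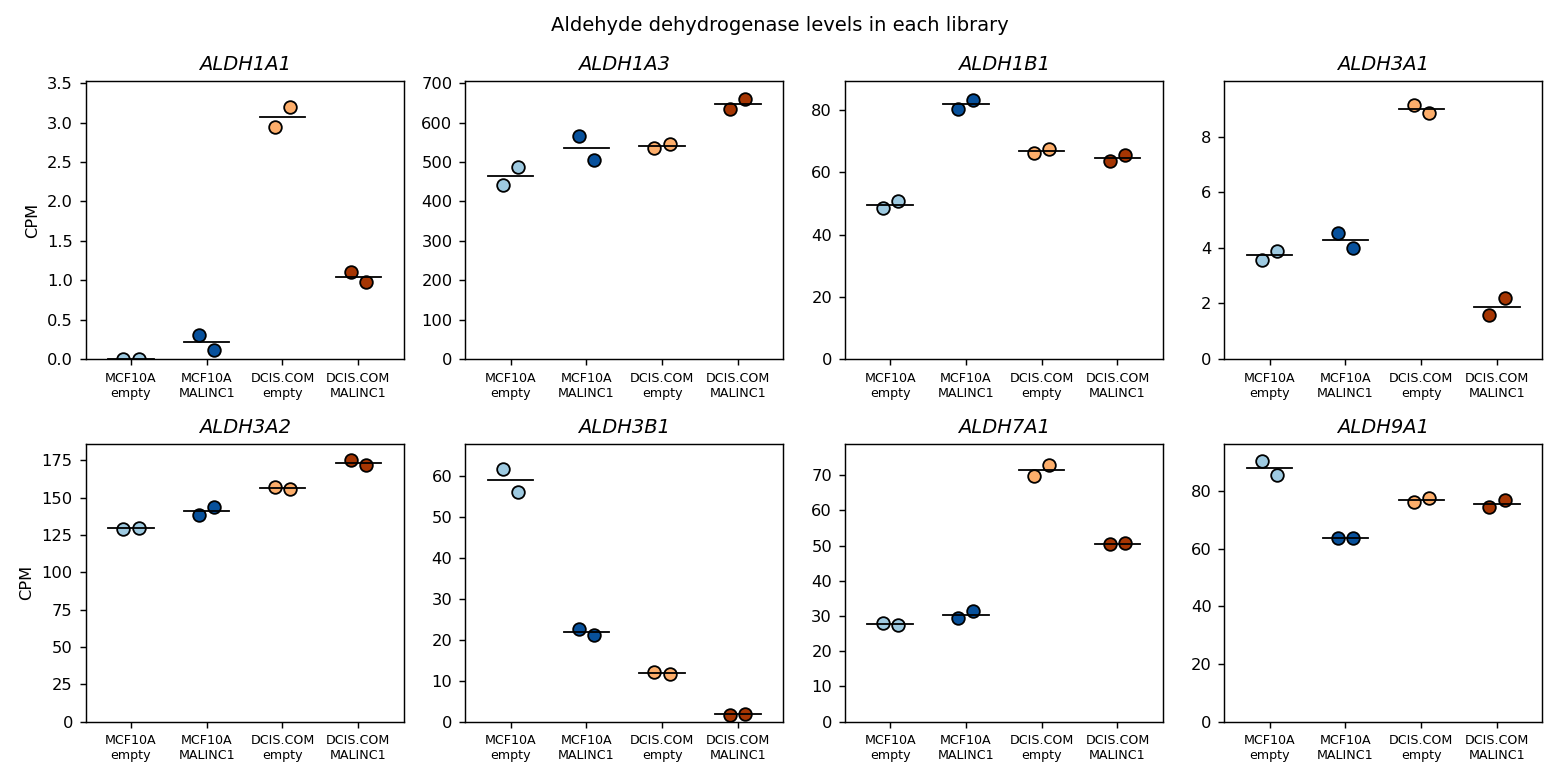
Level of each aldehyde dehydrogenase in CPM (y axis, from 0, with its own scale in each panel) in the 4 groups, with a point for each library and a line for the mean of 2 libraries. *ALDH3B1* steps down with pLOC-*MALINC1* in both lines, *ALDH3A1* does so in DCIS.COM, where it reaches 1.57 and 2.19 CPM, and the groups of *ALDH9A1* in DCIS.COM overlap.

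*ALDH1A1* and *ALDH1A3*, which oxidize retinaldehyde to retinoic acid in the cytosol, stood at opposite ends of the range of levels. *ALDH1A1* (chr9:75515587-75695358, minus strand, GRCh37, 13 exons) had 0 reads in both MCF10A libraries with pLOC-empty, which allows up to 0.103 and 0.133 CPM, and 11 and 3 reads (0.306 and 0.113 CPM) with pLOC-*MALINC1*. In DCIS.COM it had 2.94 and 3.20 CPM with pLOC-empty and 1.11 and 0.975 CPM with pLOC-*MALINC1*. Both DCIS.COM groups thus lay above every MCF10A library, whereas the MCF10A pLOC-*MALINC1* library with 3 reads was within what 0 reads allow in the controls.

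The MCF10A rise of *ALDH1A1* was at least 1.78-fold when 3 reads were taken as the limit in each control library, so a change over 2-fold was not shown by the reads themselves. This limit rests on pLOC-*MALINC1* library 1. Without library 2 it was 2.59-fold, and without library 1 only the library with 3 reads was left, which is at the limit and gives no fold. Its fitted log2 fold change of 1.89 (SE 0.33, adjusted p = 0.000428 by limma) depends on the prior count. With 0.5 CPM added in place of that prior the difference was 0.49 (adjusted p = 0.0215) and the call was lost. The call was also lost when the MCF10A libraries were fitted alone (adjusted p = 0.0216). In DCIS.COM *ALDH1A1* fell by 1.5 on the log2 scale (SE 0.33, adjusted p = 0.00261). Without any 1 of the 4 DCIS.COM libraries the adjusted p was 0.0149 to 0.0246 and the call was lost, while the log2 fold change stayed between -1.58 and -1.41. The difference between the effects was -3.39 (SE 0.46, adjusted p = 7.47e-05), and it kept its call in all 17 alternatives run, between -5.01 and -1.27. *ALDH1A1* reached 0.5 CPM in DCIS.COM libraries only, so that it had to differ between the lines to be in the table.

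*ALDH1A3* (chr15:101417919-101456831, plus strand, GRCh37, 13 exons) had 441 and 488 CPM in MCF10A with pLOC-empty and 566 and 505 CPM with pLOC-*MALINC1*. In DCIS.COM it had 536 and 546 CPM and, with pLOC-*MALINC1*, 635 and 661 CPM. Both pLOC-*MALINC1* groups lay above the control group of their line without overlap, and the MCF10A pLOC-*MALINC1* libraries enclosed the DCIS.COM control libraries. The log2 fold changes were 0.20 (SE 0.055, adjusted p = 0.00790) in MCF10A and 0.26 (SE 0.055, adjusted p = 0.00214) in DCIS.COM. Over the alternatives the adjusted p reached 0.110 in MCF10A and 0.0412 in DCIS.COM. The difference between the effects was 0.05 with a 95% interval of -0.12 to 0.23 (adjusted p = 0.587). Exons of *ALDH1A3* overlap 1715 nt of *ALDH1A3-AS1* on the opposite strand, which had no row, and the strand setting of the counting is not given in the sources used here.

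*ALDH1B1*, a mitochondrial enzyme that acts on acetaldehyde and other short aldehydes, rose in MCF10A. It lies at chr9:38392699-38398658 (plus strand, GRCh37, 2 exons) and had 48.6 and 50.7 CPM in MCF10A with pLOC-empty against 80.4 and 83.3 CPM with pLOC-*MALINC1*. DCIS.COM had 66.3 and 67.5 CPM with pLOC-empty and 63.7 and 65.7 CPM with pLOC-*MALINC1*. The order was MCF10A control, DCIS.COM with pLOC-*MALINC1*, DCIS.COM control and MCF10A with pLOC-*MALINC1*, and the middle groups lay close together. In MCF10A the rise was 0.72 (SE 0.041, adjusted p = 3.81e-08), or 1.65-fold, which is under the limit of 2-fold. The DCIS.COM difference was -0.05 with a 95% interval of -0.14 to 0.04 (adjusted p = 0.376). The effects differed by -0.77 (SE 0.058, adjusted p = 4.82e-07).

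Among the enzymes that act on lipid-derived and aromatic aldehydes, *ALDH3B1* fell in both lines. *ALDH3B1*, a membrane-associated enzyme of medium- and long-chain aldehydes, lies at chr11:67776048-67796749 (plus strand, GRCh37, 13 exons). It had 61.8 and 56.3 CPM in MCF10A with pLOC-empty and 22.6 and 21.1 CPM with pLOC-*MALINC1*. In DCIS.COM it had 12.3 and 11.7 CPM with pLOC-empty and 1.66 and 1.92 CPM with pLOC-*MALINC1*. The 4 groups formed a descending series without overlap, and the control level of DCIS.COM lay below the level that MCF10A reached with pLOC-*MALINC1*.

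On the log2 scale *ALDH3B1* fell by 1.43 in MCF10A (SE 0.092, adjusted p = 9.98e-08), or 2.70-fold lower, and by 2.70 in DCIS.COM (SE 0.092, adjusted p = 4.01e-10), or 6.50-fold lower. Both calls held in all 19 alternatives run in each line. The fall was larger in DCIS.COM by -1.27 (SE 0.13, adjusted p = 6.37e-06), and with 1 CPM added this difference was -0.83, under 2-fold. It was the only one of the 8 genes called in the same direction in both lines. These 2 comparisons share no library.

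*ALDH3A1*, a cytosolic enzyme of aromatic and lipid peroxidation aldehydes and a known target of the aryl hydrocarbon receptor, fell in DCIS.COM. It lies at chr17:19641297-19652256 (minus strand, GRCh37, 11 exons). MCF10A libraries held 3.55 and 3.90 CPM with pLOC-empty and 4.54 and 4.0 CPM with pLOC-*MALINC1*. The DCIS.COM libraries held 9.14 and 8.83 CPM with pLOC-empty and 1.57 and 2.19 CPM with pLOC-*MALINC1*. The gene thus went from the highest of the 4 groups to the lowest within DCIS.COM, and the MCF10A groups lay between them. In DCIS.COM it fell by 2.23 on the log2 scale (SE 0.16, adjusted p = 3.62e-07), 4.70-fold lower. In MCF10A the difference was 0.19 with a 95% interval of -0.16 to 0.55 (adjusted p = 0.339). The difference between the effects was -2.43 (SE 0.23, adjusted p = 3.28e-06) and was called in all 18 alternatives run.

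*ALDH3A2*, the fatty aldehyde dehydrogenase of the endoplasmic reticulum, is the neighbour of *ALDH3A1* on chromosome 17 (chr17:19551449-19589073, plus strand, GRCh37, 10 exons). It had 129.1 and 129.5 CPM in MCF10A with pLOC-empty and 138 and 144 CPM with pLOC-*MALINC1*. In DCIS.COM it had 157 and 155 CPM and then 175 and 172 CPM. The groups did not overlap and each pLOC-*MALINC1* group lay above its control, in contrast to the course of *ALDH3A1* in DCIS.COM. The log2 fold changes were 0.12 in MCF10A (SE 0.033, adjusted p = 0.00750) and 0.15 in DCIS.COM (SE 0.033, adjusted p = 0.00259). Over the alternatives the adjusted p reached 0.102 and 0.0293. Their difference was 0.03 with a 95% interval of -0.07 to 0.13 (adjusted p = 0.655).

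**Figure D2:**
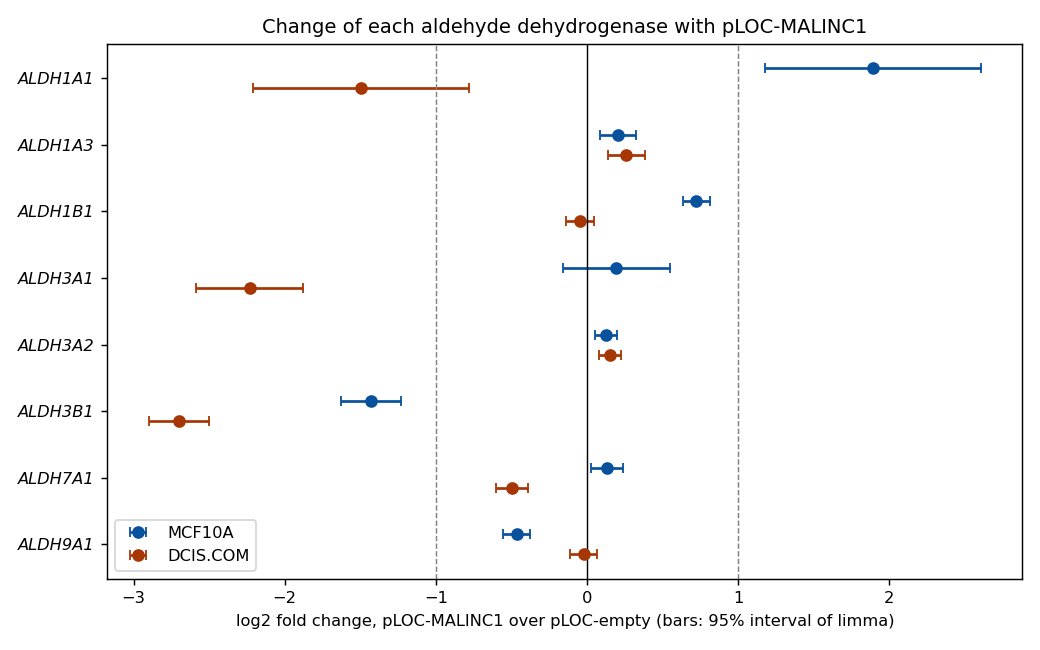
Log2 fold change of pLOC-*MALINC1* over pLOC-empty (x axis) for the 8 aldehyde dehydrogenases in MCF10A and DCIS.COM, with 95% intervals of limma from 2 libraries a group and dashed lines at 2-fold. *ALDH3B1* lies beyond the lower line in both lines, at -1.43 and -2.70, and *ALDH1A1* lies beyond the upper line in MCF10A (a fitted value against 0 reads) and beyond the lower line in DCIS.COM.

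The members of amino acid and polyamine metabolism changed by less than 2-fold. *ALDH7A1*, or antiquitin, an enzyme of lysine breakdown, lies at chr5:125866892-125931054 (minus strand, GRCh37, 18 exons). It had 28.1 and 27.4 CPM in MCF10A with pLOC-empty and 29.4 and 31.5 CPM with pLOC-*MALINC1*, and in DCIS.COM it had 69.9 and 72.8 CPM and then 50.3 and 50.7 CPM. Both DCIS.COM groups lay above both MCF10A groups. In DCIS.COM it fell by 0.50 on the log2 scale (SE 0.049, adjusted p = 5.32e-06). In MCF10A the difference was 0.13 (SE 0.049, adjusted p = 0.0382), and the effects differed by -0.63 (SE 0.070, adjusted p = 1.22e-05).

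*ALDH9A1*, which oxidizes aminoaldehydes on the routes to GABA and carnitine, fell in MCF10A. It lies at chr1:165631453-165667799 (minus strand, GRCh37, 11 exons). It had 90.5 and 85.6 CPM in MCF10A with pLOC-empty and 63.6 and 63.7 CPM with pLOC-*MALINC1*. In DCIS.COM it had 76.1 and 77.5 CPM with pLOC-empty and 74.3 and 76.9 CPM with pLOC-*MALINC1*. The DCIS.COM groups overlapped and lay between the MCF10A groups. In MCF10A it fell by 0.47 on the log2 scale (SE 0.040, adjusted p = 1.28e-06), and in DCIS.COM the difference was -0.02 with a 95% interval of -0.11 to 0.07 (adjusted p = 0.680). The effects differed by 0.44 (SE 0.057, adjusted p = 4.27e-05).

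Of the 8 genes, 3 were called for a difference between the effects (*ALDH1A1*, *ALDH3A1* and *ALDH3B1*, all more negative in DCIS.COM), where 9.2% of all genes were called. At any fold 6 of 8 passed (1 higher and 5 lower), against 35.9% of all genes. *ALDH1A3* and *ALDH3A2* were the exceptions.

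The control libraries of the lines, which also serve as the controls above, differed for 4 of the 8 genes, where 28.6% of all genes were called. At any fold all 8 passed, against 73.9% of all genes. *ALDH3B1* was lower in DCIS.COM by -2.29 (SE 0.092, adjusted p = 1.21e-10), 4.89-fold. *ALDH7A1* was higher by 1.36 (SE 0.049, adjusted p = 4.54e-11), 2.57-fold. *ALDH3A1* was higher by 1.26 (SE 0.16, adjusted p = 1.17e-05), 2.39-fold. *ALDH1A1* was at least 26.0-fold higher in DCIS.COM, with 3 reads as the limit in each MCF10A library. It is in the table through its DCIS.COM libraries only, so it had to differ. Its place among the 4 and the 8 above was thus fixed in advance. The other members differed by less than 2-fold, from -0.20 for *ALDH9A1* to 0.43 for *ALDH1B1*. Basal markers, summed, were lower in the DCIS.COM control libraries (4587 to 4731 CPM against 19747 to 19903 CPM) and luminal ones higher (3454 to 3502 CPM against 1290 to 1387 CPM). The single markers did not all follow these sums. At any fold 3 of the 8 genes of the basal list were higher in DCIS.COM, *TP63* (11.4-fold), *ITGA6* (1.60-fold) and the general epithelial gene *EPCAM* (4.50-fold). The other 5, with the general epithelial gene *CDH1* among them, were lower. Of the 6 luminal markers 3 were higher, while *ESR1*, *GATA3* and *KRT19* did not pass. The part of all these markers in the differences between the lines was not tested.

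Levels were compared between genes per kb of the canonical transcript. *ALDH1A3* was the most abundant of all 16 family genes in the table in each group. It stood at 134 ± 9.63 CPM per kb (SD, n = 2) in MCF10A control cells, 154 ± 12.5 with pLOC-*MALINC1*, 156 ± 1.94 in DCIS.COM control cells and 187 ± 5.39 with pLOC-*MALINC1*. It made up 51.7% to 62.7% of the summed level per kb of the 8 genes, lowest in an MCF10A control library and highest in a DCIS.COM library with pLOC-*MALINC1*. *ALDH3A2*, *ALDH9A1* and *ALDH1B1* followed in this order among the members in both DCIS.COM groups. In MCF10A with pLOC-empty *ALDH9A1* (36.8 ± 1.45 CPM per kb) stood just above *ALDH3A2* (34.9 ± 0.0693), and *ALDH3B1* (21.0 ± 1.38) above *ALDH1B1* (16.4 ± 0.501). In MCF10A with pLOC-*MALINC1*, *ALDH1B1* (27.0 ± 0.682) and *ALDH9A1* (26.6 ± 0.0347) were no farther apart than their spread. *ALDH3B1* went from rank 5 of the 16 in MCF10A control cells to rank 14 in DCIS.COM cells with pLOC-*MALINC1* (0.638 ± 0.0657 CPM per kb). The summed level of the 8 genes changed little by comparison, at 246 to 271 CPM per kb over the MCF10A libraries and 277 to 304 over the DCIS.COM libraries.

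**Figure D3:**
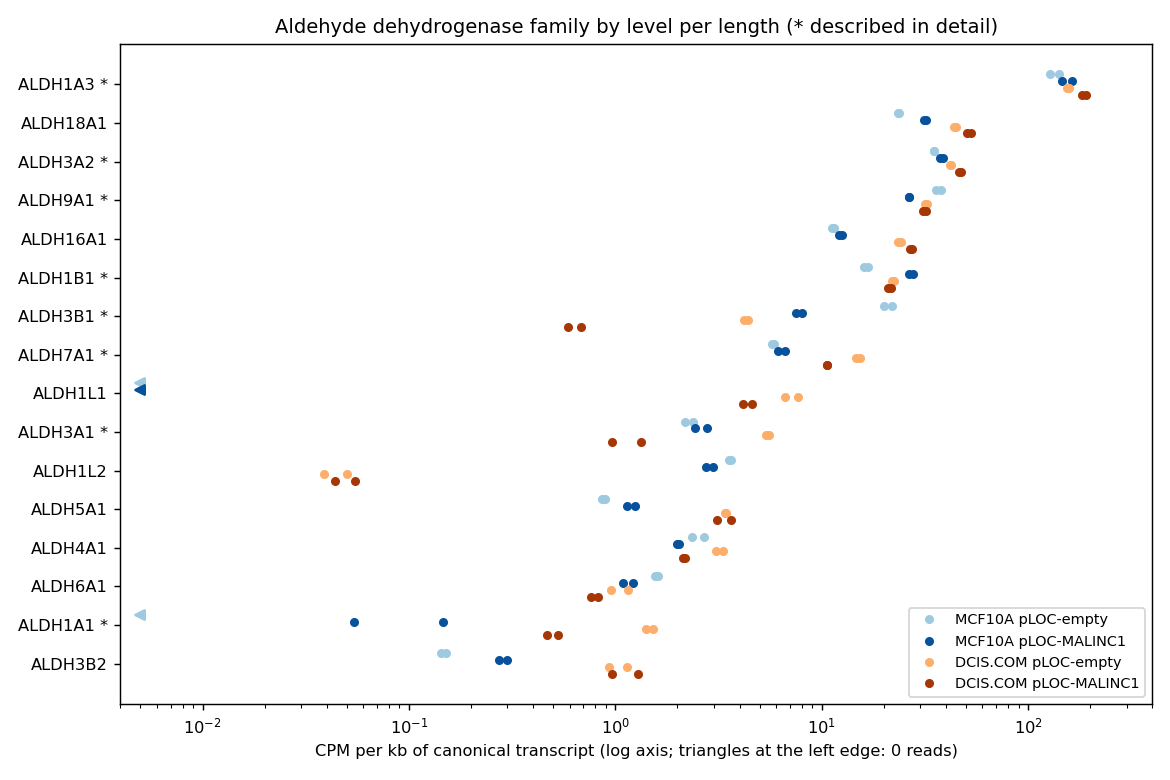
Level of 16 aldehyde dehydrogenase genes per length (x axis, CPM per kb of canonical transcript, log scale) with a point for each library, sorted by their highest group, and triangles at the left edge for 0 reads. *ALDH1A3* stands alone at the top in all 4 groups, *ALDH1L1* has 0 reads in MCF10A, and *ALDH1L2* is lower in DCIS.COM.

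Of 10 other family genes listed, 8 had a row. Within either line 0 of these were called, beside 5.5% of all genes in MCF10A and 4.53% in DCIS.COM. Without a limit on the fold, 3 of the 8 passed in each line, beside 39.6% and 33.2% of all genes. At any fold 3 rose in MCF10A, *ALDH18A1* (0.43, adjusted p = 9.38e-07), which starts proline synthesis, *ALDH5A1* (0.44, adjusted p = 0.00269), which clears succinic semialdehyde, and *ALDH3B2* (0.85, adjusted p = 0.00507), a relative of *ALDH3B1* that stood at 0.389 ± 0.0136 CPM (SD, n = 2 libraries) in control cells. In DCIS.COM *ALDH18A1* (0.22, adjusted p = 0.000260) and *ALDH16A1* (0.19, adjusted p = 0.00326) rose and *ALDH4A1*, an enzyme of proline breakdown, fell by 0.56 (adjusted p = 0.000944). Of these results within a line, only that of *ALDH18A1* in MCF10A passed in all alternatives run, and the others kept their sign.

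Between the control groups 5 of the 8 other genes were called, beside 28.6% of all genes, and the folate enzymes gave the widest differences. *ALDH1L1*, the cytosolic 10-formyltetrahydrofolate dehydrogenase, had 0 reads in all 4 MCF10A libraries and 20.4 and 23.5 CPM in DCIS.COM control libraries, at least 186-fold higher. *ALDH1L2*, its mitochondrial relative, ran the other way, with 26.9 and 26.4 CPM in MCF10A and 0.373 and 0.286 CPM in DCIS.COM (log2 difference -6.07, SE 0.16, adjusted p = 3.17e-12). Each reached 0.5 CPM in 1 of the lines only, so that both had to differ between the lines to be in the table. Within a line neither was called with pLOC-*MALINC1*. *ALDH3B2* (2.61), *ALDH5A1* (1.95) and *ALDH16A1* (1.07) were the other genes called, all higher in DCIS.COM.

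Around the retinaldehyde step, 21 of 28 listed genes of retinoid supply and signaling had a row. In MCF10A 4 were called higher and 4 lower, beside 5.5% of all genes called, and in DCIS.COM 2 were called higher and 3 lower, beside 4.53%. At any fold 8 were higher and 6 lower in each line, beside 39.6% and 33.2% of all genes, and the median log2 fold change was -0.02 in MCF10A and 0.00 in DCIS.COM, beside 0.00 and 0.01 over all genes. *CRABP2*, the carrier that delivers retinoic acid to its receptors, rose in both lines. It had 15.8 and 16.5 CPM against 65.8 and 56.6 CPM in MCF10A (1.91, SE 0.078, adjusted p = 1.81e-09). In DCIS.COM it had 26.3 and 30.6 CPM against 64.8 and 64.2 CPM (1.18, SE 0.078, adjusted p = 1.42e-07). *LRAT*, which stores retinol as esters and was named after its values were seen, also rose in both (1.45, adjusted p = 3.54e-09, and 1.07, adjusted p = 5.33e-08).

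Most listed enzymes that pass retinol and retinaldehyde to and fro had effects that differed between the lines. This was so for *DHRS3*, *DHRS9*, *SDR16C5*, *RDH11*, *RDH13* and *RDH14*, and not for *RDH10*. *SDR16C5* (difference -1.36, adjusted p = 0.00313), *RDH13* (-0.83, adjusted p = 0.000823), *RDH11* (-0.62, adjusted p = 5.65e-06) and *RDH14* (-0.39, adjusted p = 0.00393) were named after these values were seen. In MCF10A *SDR16C5* (1.31, adjusted p = 0.000323) and *RDH13* (1.01, adjusted p = 1.02e-05) were called higher. *DHRS3*, which reduces retinaldehyde to retinol, had 90.2 and 95.3 CPM in MCF10A control cells and 34.4 and 32.1 CPM with pLOC-*MALINC1*, and it fell by 1.48 (SE 0.045, adjusted p = 1.62e-10). In DCIS.COM it went from 123 and 130 CPM to 165 and 163 CPM (0.37, SE 0.045, adjusted p = 3.15e-05), and the effects differed by 1.85 (adjusted p = 4.40e-10). *DHRS9*, a retinol dehydrogenase, had 15.9 and 18.9 CPM in DCIS.COM control cells and 1.57 and 1.33 CPM with pLOC-*MALINC1*, and it fell by 3.52 (SE 0.17, adjusted p = 8.29e-09). In MCF10A *DHRS9* rose by 0.82 (adjusted p = 0.00140), and the effects differed by -4.34 (adjusted p = 2.14e-08). *RDH10*, which oxidizes retinol to retinaldehyde and was named after its values were seen, rose by 0.73 (adjusted p = 1.71e-06) in MCF10A and by 0.69 (adjusted p = 3.67e-06) in DCIS.COM, and the difference was -0.04 (adjusted p = 0.722). *STRA6*, the membrane receptor for retinol uptake, fell in MCF10A from 30.2 and 31.8 CPM to 10.2 and 10.2 CPM (-1.60, adjusted p = 4.45e-07), and in DCIS.COM its difference was -0.41 (adjusted p = 0.0150).

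Among the retinoic acid-responsive genes of the list, *TGM2*, a transglutaminase, fell by 2.97 in DCIS.COM (SE 0.15, adjusted p = 1.32e-08), from 57.9 and 62.7 CPM to 7.95 and 7.36 CPM. In MCF10A it fell by 0.93 (adjusted p = 0.000250), and it was called there without control library 1 (-1.13) or without pLOC-*MALINC1* library 2 (-1.12). *RARRES2*, or chemerin, fell in MCF10A from 1.28 and 1.46 CPM to 0.446 and 0.453 CPM (-1.46, adjusted p = 0.00147), a call lost without control library 2 (adjusted p = 0.0147) and with 0.5 CPM added (-0.97). It had 0 reads in all 4 DCIS.COM libraries and reached 0.5 CPM in MCF10A libraries only, so it had to differ between the lines to be in the table. The other genes of this kind were named after their values were seen. *PLAAT4* was called lower in both lines (-1.04, adjusted p = 0.00166, and -1.23, adjusted p = 0.000614). Both calls were lost with 0.5 CPM added (-0.85 and -0.88). The MCF10A call was also lost without control library 1 or either pLOC-*MALINC1* library (adjusted p 0.0124 to 0.0146), and that of DCIS.COM without control library 2 (-0.95). *RARRES1* fell in both lines by less than 2-fold (-0.96, adjusted p = 2.86e-08, and -0.80, adjusted p = 1.59e-07), though without MCF10A pLOC-*MALINC1* library 1 it was called there (-1.05). *CYP26B1*, which breaks down retinoic acid, rose in DCIS.COM (0.88, adjusted p = 3.29e-05) and had a difference of 0.36 in MCF10A (adjusted p = 0.0131).

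**Figure D4:**
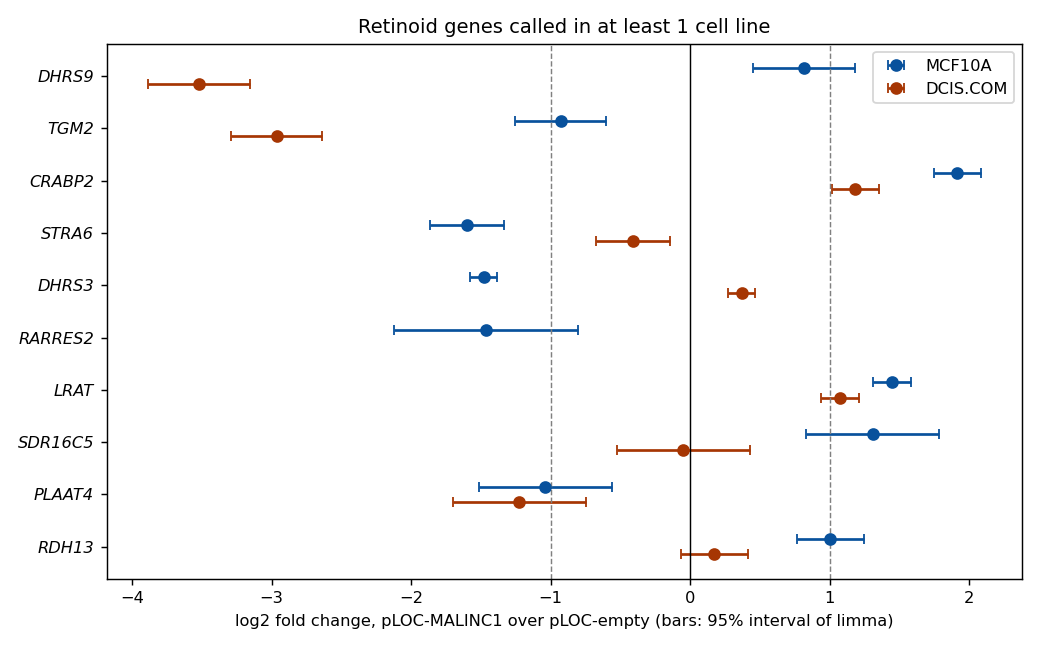
Log2 fold change of pLOC-*MALINC1* over pLOC-empty (x axis) for the 10 retinoid genes called in at least 1 line, with 95% intervals of limma and dashed lines at 2-fold. *CRABP2* and *LRAT* lie to the right in both lines, *DHRS3* and *DHRS9* lie on opposite sides of 0 in the 2 lines, and *RARRES2* has no point in DCIS.COM, where it had 0 reads.

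Of the aryl hydrocarbon receptor list, which holds genes that share a regulator with *ALDH3A1*, 6 of 9 had a row. In MCF10A 1 was called higher and 1 lower, beside 5.5% of all genes called, and in DCIS.COM 1 was called lower, beside 4.53%. At any fold 3 were higher and 3 lower in MCF10A, beside 39.6% of all genes. In DCIS.COM 1 was higher and 3 lower at any fold, beside 33.2%. *CYP1B1*, a cytochrome P450 induced by this receptor, fell in MCF10A from 43.6 and 44.2 CPM to 17.9 and 18.7 CPM (-1.26, SE 0.081, adjusted p = 1.05e-07). In DCIS.COM it rose from 3.59 and 3.68 CPM to 7.02 and 7.60 CPM (0.99, SE 0.081, adjusted p = 9.85e-07). This rise was just under the limit of 2-fold and passed it in 5 of the alternatives. *UGT1A6*, a glucuronosyltransferase that shares exons with the other genes of its locus, so that its reads are uncertain, had 1 and 4 reads in MCF10A control libraries and 31 and 24 with pLOC-*MALINC1* (2.56, adjusted p = 3.05e-05). That call was lost when the MCF10A libraries were fitted alone (adjusted p = 0.0161). In DCIS.COM it fell from 8.07 and 6.68 CPM to 2.94 and 2.63 CPM (-1.38, adjusted p = 0.00375), a call that was lost without any 1 of the 4 libraries (adjusted p 0.0193 to 0.0412). The other genes that passed in DCIS.COM, named after their values were seen, were *AHR*, the receptor itself (-0.64, adjusted p = 1.07e-07), and its target *TIPARP* (-0.18, adjusted p = 0.00373). In MCF10A these were 0.21 (adjusted p = 0.000804) and 0.23 (adjusted p = 0.000544). *ARNT* and *NQO1*, also of the list, were lower in MCF10A (-0.43, adjusted p = 1.74e-05, and -0.34, adjusted p = 3.23e-06). In DCIS.COM *ARNT* and *NQO1* did not pass (-0.09, adjusted p = 0.146, and 0.005, adjusted p = 0.916).

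Alcohol dehydrogenases and other carbonyl-reducing enzymes, which convert between alcohols and aldehydes or ketones, had 13 of 23 listed genes in the table. In MCF10A 0 were called, beside 5.5% of all genes, and in DCIS.COM 1 was called, beside 4.53%. At any fold 3 were higher and 3 lower in MCF10A, beside 39.6% of all genes. In DCIS.COM 1 was higher and 3 were lower at any fold, beside 33.2%. *AKR1B1*, or aldose reductase, had 126 and 116 CPM in DCIS.COM control cells and 57.4 and 57.5 CPM with pLOC-*MALINC1*, and it fell by 1.07 (SE 0.048, adjusted p = 5.17e-09). In MCF10A it fell by 0.49 (adjusted p = 3.87e-06), and the effects differed by -0.58 (adjusted p = 2.18e-05).

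The genes whose log2 CPM ran closest to the called members over the 8 libraries were also named, by the root mean square distance between centred profiles, among genes with at least 1 CPM in their highest group. These libraries form 4 groups of 2 and include the difference between the lines, and the likeness is a description. *ALDH3B1* was followed most closely by *ITGB2*, *ABCG1* and *B3GALT5* (distances 0.44, 0.45 and 0.48, Pearson's r 0.990, 0.989 and 0.987). *ITGB2* had group means of 30.6 and 7.45 CPM in MCF10A and 6.20 and 0.411 CPM in DCIS.COM, each time with the control group first. *B3GALT5* was near 0 in DCIS.COM with pLOC-*MALINC1* (0.0148 ± 0.0209 CPM, SD, n = 2). *ALDH3A1* was followed by *GJA5*, *SH3TC1* and *RNF19A* (distances 0.18, 0.20 and 0.21, r 0.979, 0.970 and 0.970). *GJA5* had 12.1 and 12.2 CPM in MCF10A and 34.2 and 6.41 CPM in DCIS.COM. *ALDH1A1* was followed by *LIF*, *PGF* and *OSR1* (distances 0.34, 0.37 and 0.49, r 0.987, 0.986 and 0.977). *ALDH1A1* and *PGF* both had 0 CPM in the MCF10A control libraries, where their log2 values are set by the prior count. *LIF* had 3.75 and 13.2 CPM in MCF10A and 144 and 77.7 CPM in DCIS.COM. The order of the groups follows from how these genes were selected.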

How the data were processed

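RNA-seq libraries of 2 cell lines with 2 vectors were used (8 libraries, 2 a group). Per the labels and the paper's methods, the authors extracted RNA from subconfluent plates, prepared ScriptSeq v2 libraries, sequenced 76 nt paired-end reads, aligned them to hg19, counted them on genes with featureCounts and obtained normalized log2 CPM with edgeR. Tool versions, the strand used in counting and any filter on low genes are not given in the sources used here. The deposited log2 values hold a prior count (a gene without reads stands at 0.0713 CPM), from which whole reads were recovered (100% of values within the tolerance of 0.05 reads). Of the 13842 genes, 346 (2.50%) had no symbol and stayed in the fit by their identifier.

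Linear models were fitted to the deposited log2 values with limma (version 3.58.1, R 4.3.3, functions lmFit, contrasts.fit and eBayes with trend), with a mean for each of 4 groups over all 8 libraries and Benjamini-Hochberg adjustment over all genes. The authors' tool models counts, whereas the table holds log2 values. The recovered reads were fitted with the weights of voom as an alternative, and the authors' count model was not run. A minimum of 0.5 CPM in 2 libraries or more removed no gene. Replicates correlated at 0.996 to 0.997 and differed by more than counting noise (chi-square per degree of freedom 3.23 to 20.2). Floors of 3 reads cover counting error only. The small RNAs RN7SL1 and RN7SL2 took 8.22% to 15.7% of the reads. The steps were run on simulated counts, with a single spread for all genes and changes set only in genes with enough reads. These simulated counts do not cover genes with few reads, such as *ALDH1A1* in MCF10A. Levels per kb use the canonical GENCODE transcript (GRCh37) and promoters come from RefSeq (GRCh38.p14). Python 3.11.15 with pandas 2.3.3, numpy 2.4.6 and, for plots, matplotlib 3.10.9 was used beside R.

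The members and gene lists were chosen with earlier results of these data known. The text names all members, the other family genes, up to 6 list genes called within a line by size of change, and the 3 genes closest in profile to each called member. The alternatives were other pseudocounts, filters, scalings, models, sets of fitted libraries and call rules, a replicate block, and fits without each library.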

Additional observations from a re-analysis of the deposited data

Results flagged for a closer look

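For 7 of the 16 aldehyde dehydrogenases in the table (43.8%, beside 35.9% of all genes) the change with pLOC-*MALINC1* differed between the lines by the limma contrast of the effects (adjusted p below 0.01 over all genes). As the DCIS.COM effect minus the MCF10A effect on the log2 scale, the values were -3.39 for *ALDH1A1*, -2.43 for *ALDH3A1*, -1.27 for *ALDH3B1*, -0.77 for *ALDH1B1*, -0.63 for *ALDH7A1*, 0.44 for *ALDH9A1* and -0.20 for *ALDH18A1*. *ALDH3B1* and *ALDH18A1* moved in 1 direction in both lines and differed in size, *ALDH1A1* had effects of opposite sign, and for *ALDH1B1*, *ALDH3A1*, *ALDH7A1* and *ALDH9A1* the effect passed in 1 line. The libraries of *ALDH1A1* in MCF10A held 0 to 11 reads. The *ALDH18A1* difference ran from -0.24 to -0.13 over the alternatives and did not pass in all of them.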

How the results depend on the processing

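The number of members called was 2 in MCF10A and fell to 1 with 0.5 or 1 CPM added, with the 5 CPM filter (which removed *ALDH1A1*) and with the 4 libraries of the line fitted alone. At any fold it was 6 in MCF10A, 6 in DCIS.COM, 6 for the difference between the effects and 8 between the lines. With each library left out in turn it was 2 to 2, 2 to 3, 3 to 3 and 4 to 4. Of the members' single results, 581 kept their direction and side of the threshold, 10 lost their call and 5 changed sign, all 5 with a main value near 0. *ALDH9A1* in DCIS.COM was 0.012 without the RN7SL genes in the library size and -0.047 to 0.0022 with a library left out. With a library left out, the difference between the effects was -0.028 to 0.14 for *ALDH1A3* and -0.00010 to 0.055 for *ALDH3A2*. *ALDH1A1* in DCIS.COM also lost its call with 1 CPM added (-0.995) and without the trend (adjusted p = 0.0137). Over all genes, 761 genes passed in MCF10A and 627 in DCIS.COM, but 416 and 368 with 1 CPM added and 487 in MCF10A with the 5 CPM filter. Without the RN7SL genes the median of all genes between the lines shifted by 0.10 on the log2 scale. With the replicate block the members called stayed at 2 and 3 and all genes called were 759 and 634. The replicate numbers did not pair the libraries (correlation of deviations -0.07 to 0.04). Depth limited *ALDH1A1* in MCF10A.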
